A study of Mus musculus with 6 samples.

Results

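The nuclear genes of the respiratory chain and ATP synthase were followed across lung and organoid cells of a bleomycin fibrosis study in mice. They were taken by name as the gene rows whose symbol begins with Nduf, Sdha to Sdhd, Uqcr, Cox4 to Cox8 or Atp5, leaving out pseudogene symbols and the Sdhaf assembly factors. This gave 92 genes of 30830 (PBS) and 30828 (bleomycin) rows in the single-dose tables and 93 of 32285 rows in each of the other 4 tables, with 90 genes in every table and 95 in all. A nuclear subunit whose symbol begins otherwise is not taken in. The names also take in genes that are not subunits. These are the 8 Ndufaf factors, which help to assemble complex I, the supercomplex factor Cox7a2l, and Atp5s and Atp5sl. Atp5s and Atp5sl were listed in the single-dose tables alone, and Atp5md, Atp5mpl and Ndufaf8 in the other tables alone. A symbol missing from a table need not mean a missing gene, since Atp5s and Atp5sl are also named Dmac2l and Dmac2. The 17 complex V names of each table are thus not the same in all experiments.

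The respiratory chain sits in the inner mitochondrial membrane. Complexes I and II take electrons from NADH and succinate, complex III passes them to cytochrome c, complex IV hands them to oxygen, and the proton gradient built on the way drives ATP synthase, also called complex V. Most subunits are encoded in the nucleus and the remainder in the mitochondrial genome, so every complex but complex II, which is wholly nuclear, needs both sets of messages. Several complex IV subunits come as a common form and an alternative form that is known from muscle, testis, lung or hypoxic cells.

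The study asked how fibroblasts (FBs) change in lung fibrosis and how such FBs act on alveolar type 2 epithelial cells (AEC2s), using 6 single-cell libraries, 1 per condition, each from 3 pooled mice. In the lung experiments, adult male Pdgfra-GFP mice, labelled PDGFRa-EGFP in the later experiment, received PBS or bleomycin by oropharyngeal aspiration (OP), either once or weekly for 3 weeks with 1 U/kg in the first and second weeks and 0.5 U/kg in the third, and GFP+ cells were sorted 14 days after the last dose. The labels disagree on the single dose, which is 2 U/kg in the dosing protocol and 4 U/kg in the treatment field. In the organoid experiment, GFP+ FBs from mice given PBS (normal FBs) or 2 U/kg bleomycin (fibrogenic FBs) were grown for 2 weeks in Matrigel with tomato+ AEC2s from tamoxifen-induced SpcCreER × Rosa-td26 mice. The epithelial donors were of the same kind in both organoid libraries. The reporter puts a nuclear GFP into the Pdgfra gene itself, was carried by PBS and bleomycin mice alike, and marks cells that use this gene rather than all FBs. With 1 library per condition there was no test between conditions. All intervals given are exact 95% intervals that cover counting error only, a count of 0 is given with the level of 3 UMIs as its rounded limit, and mouse-to-mouse spread could not be measured.

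The libraries held 1015 to 10737 barcodes and between 7201081 and 238618743 unique molecular identifiers (UMIs, 1 per captured RNA molecule). The median UMIs per barcode were 6780.5 and 10711 in the single-dose PBS and bleomycin libraries, 10178 and 2478 in the repetitive ones, and 36841 and 4289.5 in the normal and fibrogenic organoids. Levels are given as UMI counts per 1000000 UMIs of the library or cell group (CPM). Barcodes were gated by marker genes. The FB gate held 915 and 851 barcodes after a single dose and 5467 and 7745 after repetitive dosing. All 9 FB markers were detected in each sum, but these markers also form the gate, so this is no separate support. Organoid FBs (2154 and 4437 barcodes) also had all 9, but the 8 alveolar FB markers summed to 162 and 130.3 CPM there, against 13070 and 10320 CPM in FBs of the PBS lungs. Organoid FBs were therefore not divided into the FB subtypes of the lung, only into cycling and not cycling. Organoid epithelium (1846 and 1636 barcodes) had UMIs of all 8 epithelial markers, which form its gate, and of all 7 AEC2 markers in its sum. The macrophage list summed to 5572 and 5805 CPM in it, and the part of each gene in this was not tested. In these libraries 5 and 11 barcodes passed the macrophage and monocyte gate. Any pair of libraries shared at most 30 barcode sequences.

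Promoters of 4 genes are shown because the results below turn on 2 of them, Cox8b and Cox6b2, and because Uqcrh and Ndufa11 carry the motifs for which respiratory genes are known. Each is the 250 bases before the RefSeq start site, on build GRCm38 and read 5′ to 3′ on the strand of the gene. Capitals mark a match, on either strand, to the NRF1 motif GCGCATGC, the ETS motif CCGGAAG or the core of the hypoxia response element ACGTG, whose letters lie within the E-box CACGTG. Cox8b (chr7:140900447-140900696, minus strand), the muscle form of subunit 8, had 1 hypoxia core and no NRF1, ETS or YY1 match. Cox6b2 (chr7:4753095-4753344, minus strand), the testis form of subunit 6b, had none of the motifs. Uqcrh (chr4:116075071-116075320, minus strand), the hinge protein of complex III, had an ETS match near its start. Ndufa11 (chr17:56717512-56717761, plus strand), a membrane arm subunit of complex I, had 2 NRF1 matches that overlap, since the motif is nearly its own reverse complement.
Cox8b: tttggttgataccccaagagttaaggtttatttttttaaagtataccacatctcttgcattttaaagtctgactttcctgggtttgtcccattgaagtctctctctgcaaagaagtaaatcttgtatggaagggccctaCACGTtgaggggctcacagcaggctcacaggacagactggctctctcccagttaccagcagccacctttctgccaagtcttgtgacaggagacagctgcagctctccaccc
Cox6b2: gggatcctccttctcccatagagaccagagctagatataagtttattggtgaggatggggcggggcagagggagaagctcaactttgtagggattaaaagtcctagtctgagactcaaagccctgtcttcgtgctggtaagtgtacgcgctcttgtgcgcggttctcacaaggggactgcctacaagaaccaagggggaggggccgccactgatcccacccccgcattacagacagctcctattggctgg
Uqcrh: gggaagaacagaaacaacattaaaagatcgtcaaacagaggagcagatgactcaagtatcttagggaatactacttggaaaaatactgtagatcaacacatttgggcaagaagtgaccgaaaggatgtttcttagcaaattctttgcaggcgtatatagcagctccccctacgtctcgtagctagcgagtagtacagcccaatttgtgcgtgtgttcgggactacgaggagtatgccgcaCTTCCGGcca
Ndufa11: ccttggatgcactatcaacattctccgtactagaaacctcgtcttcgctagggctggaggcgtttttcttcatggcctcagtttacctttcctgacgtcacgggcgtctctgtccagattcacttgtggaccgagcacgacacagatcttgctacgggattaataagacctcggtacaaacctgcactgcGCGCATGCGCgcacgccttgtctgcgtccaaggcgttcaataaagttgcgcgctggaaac

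RefSeq promoters of 300 bases, 250 before and 50 after the start, were matched to 78 of the 95 genes. The NRF1 motif was in 12 of these 78 (15.4%) and in 2.8% of all 27025 promoters. The ETS motif was in 23.1% of the 78 and in 9.12% of all, and the YY1 motif AAGATGGCG in 10.3% and 1.49%. The TATA box TATAAA was in 10.3% and 14.2%, and the hypoxia core in 25.6% and 19.7%. Median GC content was 58.5% and 52.7%. Both an NRF1 and an ETS match were held by 5 genes, which are Sdhb, the iron-sulfur subunit of complex II, Uqcr11, a small subunit of complex III, Cox6a1 of complex IV, and Atp5k and Atp5l of ATP synthase. The share of all promoters with both motifs was not computed, so nothing is read from this count. These matches are letters in a window and not measured binding.

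Genes of the respiratory chain took a share of the messages that differed by experiment far more than by condition. They made up 21527.7 CPM in the single-dose PBS library and 22789.5 CPM after bleomycin, 14250.6 and 14271.1 CPM after repetitive PBS and bleomycin, and 25949.1 and 25581.1 CPM in organoids with normal and fibrogenic FBs. The ratio of treated to control was 1.059, 1.001 and 0.9858 in the 3 experiments. The experiments differ in preparation and gene tables, so their levels are set side by side only. In such a sum, fewer cells of a type and less RNA per cell cannot be told apart.

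**Figure D1:**
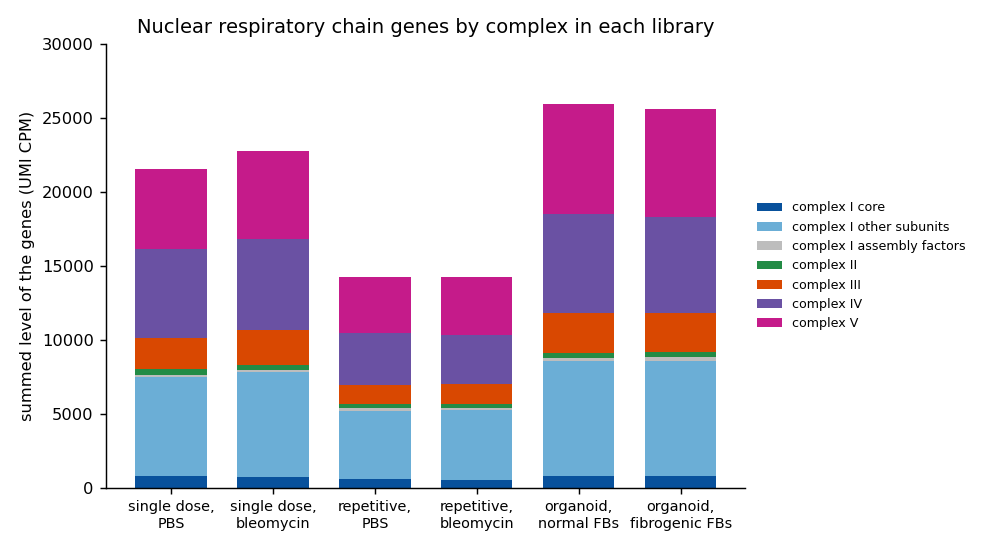
Bars give the summed level of the nuclear respiratory chain genes in each of the 6 libraries, in UMI CPM, divided by complex. Each pair of PBS and bleomycin, or normal and fibrogenic, libraries stands at nearly the same height, from 14250.6 CPM after repetitive PBS to 25949.1 CPM in organoids with normal FBs.

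The same few small subunits stood at the top of their complexes in nearly all libraries. Each gene here is a captured 3′ end counted in CPM with no length term. Cox8a, the common form of subunit 8, stood at 823.1 CPM in single-dose PBS, 569.5 CPM in repetitive PBS and 1175 CPM in normal organoids, the highest of complex IV in those libraries. Atp5e, the epsilon subunit of ATP synthase, was the highest of complex V in every library, at 417.6 to 793 CPM. Ndufa4, which was named for complex I and is now placed in complex IV, led the genes with complex I names at 388.2 to 577 CPM. The highest of complex III was Uqcrh except in fibrogenic organoids, where Uqcrq (614.6 CPM) stood above it. Ndufs1, the large iron-sulfur subunit of complex I, was the lowest of the complex I core in every library, at 19.02 to 34.89 CPM, and Sdhd, a membrane anchor of complex II, stood at 45.77 to 90.04 CPM. Cox8c, a testis form, had 0 UMIs in every library but single-dose bleomycin (0.08425 CPM).

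FBs after a single dose of bleomycin showed a summed level close to that of PBS FBs, with a few genes far apart. The sum was 21464.5 CPM in PBS and 22564.5 CPM in bleomycin FBs (ratio 1.051, log2 ratio 0.07 with an interval of 0.06 to 0.08). Of the 92 genes, 87 passed the filter of a mean of 5 CPM, and 50 of these stood above and 37 below a log2 ratio of 0, with a median of 0.07 beside 0.06 for all genes. All log2 ratios of single genes were taken after adding 1 CPM, while their intervals are of the UMI ratio without it. At least 1.5-fold higher were 3 genes, against 15% of all 9725 genes, and 3 were at least 1.5-fold lower, against 9.59%. Centred on the median gene, 1 was higher and 5 were lower, and with each barcode weighted equally the median was -0.04. The 5 genes under the filter were Cox4i2, Cox7b2, Cox7a1, Cox6a2 and Cox8c, all alternative subunits of complex IV.

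Cox8b and Cox6b2 were the lowest in the single-dose FBs. Cox8b, which lies at chr7:140898945-140900446 (GRCm38, like all positions here) with no other annotated gene sharing its exons, stood at 49.99 CPM in PBS FBs (305 UMIs) and 5.409 CPM in bleomycin FBs (56 UMIs), a log2 ratio of -2.99 (interval -3.65 to -2.79). Cox6b2, at chr7:4751792-4753094, stood at 324.4 and 163 CPM (log2 ratio -0.99, interval -1.09 to -0.90). Their common partners stood close to the PBS level. Cox8a stood at 825.3 and 843.8 CPM and Cox6b1, which bridges both partners of the complex IV dimer, at 464.2 and 499.9 CPM. Cox6b2 made up 41.1% of the UMIs of the Cox6b pair in PBS FBs (interval 39.7% to 42.5%) and 24.6% in bleomycin FBs. Atp5s, a coupling factor of ATP synthase, was the third gene called lower, at 12.29 and 7.148 CPM (log2 ratio -0.71).

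Uqcrq, Ndufa11 and Atp5g1 were called higher after a single dose. Uqcrq, a small subunit of complex III at chr11:53427922-53430831, stood at 236.2 CPM in PBS and 407.4 CPM in bleomycin FBs (log2 ratio 0.78, interval 0.70 to 0.87). Ndufa11, at chr17:56717767-56722141, stood at 241.9 and 374 CPM (0.63), and it shares exons on the opposite strand with Vmac. Atp5g1, which with Atp5g2 and Atp5g3 encodes the same mature c subunit of the ATP synthase rotor, stood at 256.2 and 393.8 CPM (0.62). Its partners were closer to the PBS level, at 340.8 and 389.5 CPM for Atp5g2 (0.19) and 150 and 182.1 CPM for Atp5g3 (0.28). In barcodes of 3000 to under 10000 UMIs the log2 ratios of Uqcrq, Ndufa11 and Atp5g1 were 0.49, 0.45 and 0.24, all under the 1.5-fold limit, and from 10000 to under 30000 UMIs they were 0.88, 0.63 and 0.63. Bleomycin FBs had a median of 11290 UMIs and PBS FBs 6800, and the part of depth in these differences was not tested further.

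The catalytic core of complex I was divided after a single dose. Of its 7 genes 4 were below 0 and 3 above, with a median log2 ratio of -0.22, and none reached 1.5-fold. Ndufv1, which binds NADH, stood at 79.5 and 54.28 CPM (log2 ratio -0.54, interval -0.73 to -0.37), and Ndufs7, an iron-sulfur subunit next to the quinone site, at 195.1 and 151.7 CPM (-0.36). Ndufv2, the partner of Ndufv1 in the NADH module, stood at 138.5 and 153.2 CPM (0.14). All 4 genes of complex II were below 0, with Sdha, the flavoprotein that oxidizes succinate, at 105.4 and 83.84 CPM (-0.33) and Sdhb at 122.1 and 118.3 CPM (-0.05). Of the complex III core, Uqcrfs1, the Rieske iron-sulfur protein, stood at 102.6 and 89.54 CPM (-0.19), and Uqcrc1 at 102.6 and 102.1 CPM. Of the F1 part of ATP synthase, Atp5a1, the alpha subunit, stood at 286.2 and 238.8 CPM (-0.26), while Atp5b, the catalytic beta subunit, stood at 297.3 and 308.7 CPM (0.05). The 31 other genes with complex I names, Ndufa4 and Ndufa4l2 among them, had a median of 0.14, with 20 above 0.

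**Figure D2:**
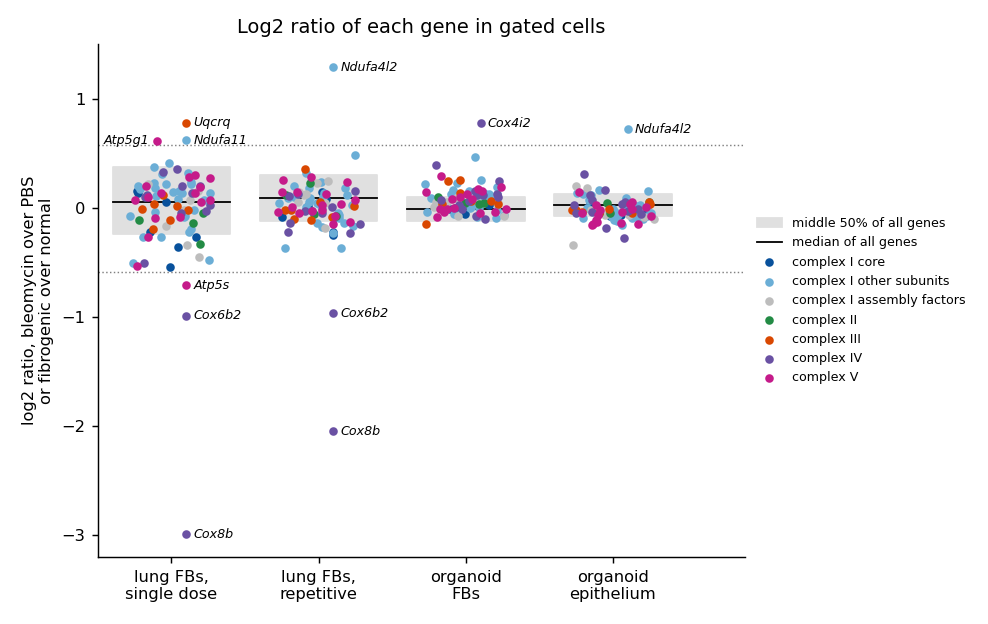
Each point is a respiratory chain gene that passed the filter in that comparison, placed by its log2 ratio of bleomycin over PBS, or fibrogenic over normal, after adding 1 CPM. Grey boxes hold the middle 50% of all genes, black lines their median, dotted lines mark 1.5-fold and the genes past them are named. Cox8b and Cox6b2 lie lowest in both lung experiments, with Cox8b at -2.99 and -2.05.

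After repetitive dosing the sum was again nearly the same in FBs of both kinds. It was 14197.1 CPM in PBS and 14170.8 CPM in bleomycin FBs (ratio 0.9981, log2 ratio with an interval of -0.01 to 0.00). Of 93 genes, 88 passed the filter, 50 above and 38 below 0, with a median log2 ratio of 0.02 beside 0.09 for all genes. Past 1.5-fold there was 1 gene higher, against 10.9% of all 10421 genes, and 2 lower, against 6.2%. The median was -0.07 when centred on the median gene and -0.01 with each barcode weighted equally.

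Cox8b and Cox6b2 were again the 2 genes called lower. Cox8b stood at 20.01 CPM in PBS FBs (1185 UMIs) and 4.082 CPM in bleomycin FBs (242 UMIs), a log2 ratio of -2.05, with an interval of -2.50 to -2.09 for the UMI ratio. Cox6b2 stood at 141 and 71.82 CPM (-0.96, interval -1.03 to -0.92). The Cox6b2 share of its pair was 34.3% and 21.3%. Cox8a stood at 570.9 and 515.8 CPM (-0.15) and Cox6b1 at 269.9 and 265.7 CPM (-0.02). Cox8b and Cox6b2 also lay below PBS in barcodes of 3000 to under 10000 UMIs, at -1.92 and -1.10, and of 10000 to under 30000 UMIs, at -2.02 and -0.93. In barcodes of 1000 to under 3000 UMIs Cox8b rested on 3 UMIs in PBS, and Cox6b2 differed by -0.25. No other gene was called in the same direction in FBs of both lung experiments. Of the 85 genes past the filter in both, 40 were above 0 in both and 27 below 0 in both, and 78.8% had the same direction beside 73.4% of all 8895 genes.

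Ndufa4l2 was the gene called higher. A filter at 20 CPM leaves out both it and Cox8b, with 0 genes then higher and 1 lower. This relative of Ndufa4, known as a target of the hypoxia factor HIF-1, stood at 5.59 CPM in PBS FBs (331 UMIs) and 15.16 CPM in bleomycin FBs (899 UMIs), a log2 ratio of 1.29. It lies at chr10:127514967-127517154 and shares exons on the opposite strand with Shmt2. In barcodes of 1000 to under 3000 UMIs the order was the other way, at 56.94 and 21.92 CPM, with 25 UMIs behind the PBS value. The 3 genes highest after a single dose were above 0 here too, below the 1.5-fold limit. Uqcrq stood at 141.7 and 182.2 CPM (0.36), Ndufa11 at 165.8 and 232.5 CPM (0.49) and Atp5g1 at 172.1 and 206.8 CPM (0.26). Ndufs4, an accessory subunit whose loss is known to cause complex I disease, stood at 83.97 and 105.6 CPM (0.33). At 1000 to under 3000 UMIs Uqcrq, Ndufa11 and Atp5g1 were at -0.31, -0.14 and -0.82.

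Among the catalytic genes after repetitive dosing, Ndufv1 stood at 59.07 and 50.53 CPM (-0.22) and Ndufs7 at 139 and 116.8 CPM (-0.25), the lowest of the complex I core in this experiment. The core had a median of -0.08 with 3 of 7 above 0. Complex II was divided, with Sdha at 90.54 and 85.97 CPM (-0.07) and Sdhd at 44.38 and 52.2 CPM (0.23). Ndufa5 and Ndufa6, accessory subunits of complex I, stood at 178.4 and 138.3 CPM (-0.37) and at 164.4 and 127.5 CPM (-0.36), and after a single dose they were at -0.48 and -0.50. Complex IV had 4 of 13 genes above 0 and a median of -0.04. Complex V had 10 of 17 above 0 and a median of 0.03.

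The summed level varied with depth, in ways that differed by experiment and condition. In FBs of the repetitive experiment the sum was 19112.2 CPM in PBS and 14423.5 CPM in bleomycin barcodes of 1000 to under 3000 UMIs, 15129.4 and 14218.7 CPM from 3000 to under 10000, 13853.1 and 14046.8 CPM from 10000 to under 30000, and 11335.8 and 14580.1 CPM at 30000 UMIs or more (36 and 155 barcodes). The level thus decreased with depth in PBS FBs and stayed within a narrow range in bleomycin FBs, and the sign of the difference turned between the ranges. After a single dose the log2 ratio of the sums was -0.07, -0.13 and 0.14 in the 3 lower ranges. Bleomycin FBs rose with depth there, at 19503.1, 19821.1, 23014.6 and 26484.4 CPM, with 20 barcodes in the deepest range. Single-dose PBS FBs stood at 20441.7, 21622 and 20938.1 CPM, with 0 barcodes in the deepest range. A median of 10456 UMIs in PBS and 3747 in bleomycin FBs of the repetitive experiment stands beside these values.

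**Figure D3:**
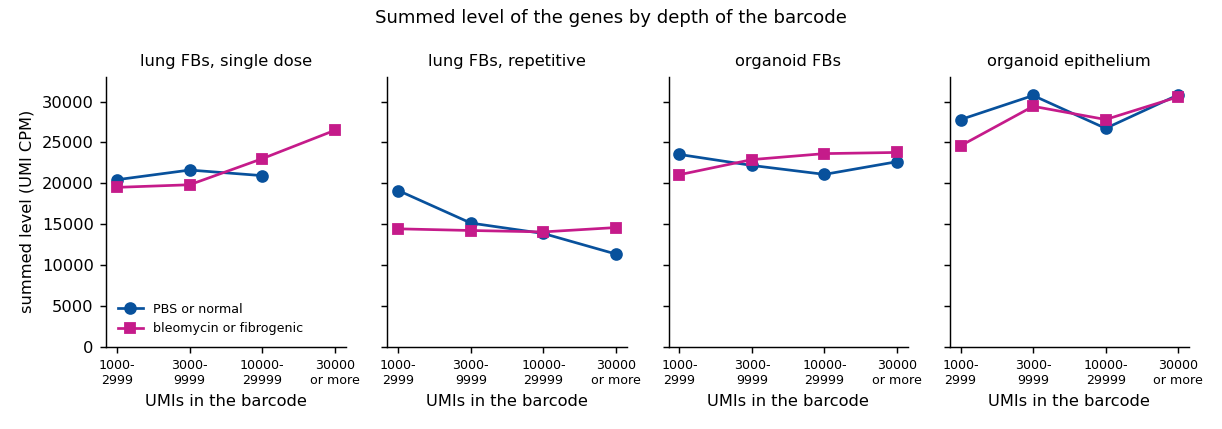
Points give the summed level of the genes in CPM (vertical axis) for gated barcodes grouped by their UMIs (horizontal axis), with PBS or normal in blue and bleomycin or fibrogenic in pink. In repetitive FBs the PBS line runs from 19112.2 to 11335.8 CPM across the ranges while the bleomycin line stays between 14046.8 and 14580.1 CPM.

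The remaining genes of complex IV and the assembly factors that passed the filter stayed within 1.5-fold in FBs. Cox5a and Cox5b, whose products sit on the matrix side of complex IV, stood at 187.7 and 241.8 CPM (0.36) and at 280.9 and 355.1 CPM (0.34) after single-dose PBS and bleomycin, and after repetitive dosing at 137.4 and 153.1 CPM (0.16) and at 173.8 and 190.6 CPM (0.13). Cox7a2l was below PBS in both experiments, at 473.4 and 333.1 CPM (-0.51) and at 252.5 and 215.2 CPM (-0.23). Of the complex I assembly factors, 3 of 7 were above 0 after a single dose and 7 of 8 after repetitive dosing. Ndufaf3 was below 0 in both, at 41.47 and 32.65 CPM (-0.34) and at 31.18 and 27.42 CPM (-0.18), and Ndufaf5 above 0 in both, at 8.523 and 10.14 CPM (0.23) and at 8.005 and 9.597 CPM (0.23).

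Markers of other cells and states moved with the FB comparisons. The alveolar FB markers summed to 13070 CPM in PBS and 3802 CPM in bleomycin FBs after a single dose and to 10320 and 4851 CPM after repetitive dosing, and the markers of activated FBs to 160.8 and 5398 CPM and to 307.4 and 2564 CPM. The 3 airway secretory markers summed to 716 and 17.39 CPM in single-dose FBs and to 23.41 and 54.6 CPM in repetitive FBs, with all 3 detected. The 5 plasma cell markers summed to 3.834 and 259.7 CPM in repetitive FBs. The part of these lists in the values above was not tested.

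Within the FB subtypes, the sums differed by less than the levels between experiments. Alveolar FBs stood at 22830.7 CPM in single-dose PBS (511 barcodes) and 24968.5 CPM in bleomycin (95 barcodes), and at 14706.9 and 13843.6 CPM after repetitive dosing (3171 and 811 barcodes). Adventitial FBs, also called matrix FBs, stood at 18673.9 and 19344.8 CPM and at 14078.2 and 14292.4 CPM. In the single-dose libraries adventitial FBs were lower than alveolar FBs over most genes, with 74 of 87 genes below 0 in PBS (median log2 ratio -0.34) and 75 of 86 in bleomycin (-0.39). Medians of all genes there were -0.02 and -0.05. At least 1.5-fold lower were 17 and 26 genes, against 19.4% and 21.3% of all genes, so in PBS the share was near that of all genes. At least 1.5-fold higher were 4 and 1, against 19% and 19.5%. Median UMIs were 6453.5 in adventitial and 6628 in alveolar FBs of PBS, and 7515.5 and 10984 in bleomycin. In the repetitive libraries the medians of the members were -0.03 and 0.05, beside -0.07 and -0.09 for all genes. Activated FBs and myofibroblasts were at -0.14 relative to alveolar FBs after a single dose and at 0.15 after repetitive dosing, so the position of this group turned between the experiments.

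Among lung FBs, Cox8b was highest in the alveolar FBs of each library. It stood at 59.58 CPM in alveolar FBs of single-dose PBS (interval 51.5 to 68.6) and 17.58 CPM in bleomycin (10.4 to 27.8), and at 26.04 and 9.18 CPM after repetitive dosing. In adventitial FBs the values were 9.913, 0.7331, 1.746 and 1.672 CPM in the same order, resting on 7, 1, 11 and 20 UMIs. In activated FBs and myofibroblasts it stood at 2.043 and 0.963 CPM after single and repetitive bleomycin. FBs outside these subtypes stood at 48.54 and 6.166 CPM and at 15.35 and 4.711 CPM. The alveolar gate held 511 of 915 FB barcodes in PBS and 95 of 851 in bleomycin after a single dose, and 3171 of 5467 and 811 of 7745 after repetitive dosing. The part of this makeup in the Cox8b level over all FBs was not tested.

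The share of barcodes with a Cox8b UMI showed the same order. It was 21.7% of FBs in single-dose PBS and 5.17% after bleomycin, and 16.2% and 2.57% after repetitive dosing. Thinned to 3000 UMIs per barcode, the shares were 12.3% and 1.54%, and 5.63% and 1.23%, over 811, 798, 5243 and 4274 barcodes. T cells, which should lack the gene, had 1.12% in repetitive PBS after thinning (54 barcodes) and 0% in repetitive bleomycin (50 barcodes), and endothelial cells 0% (44 barcodes). The T cell value in PBS rests on 1 UMI, and the single-dose libraries had no group of another lineage with at least 50 barcodes. The thinned bleomycin shares of FBs lie close to that value, so no order is read between them and the background. Median UMIs were 3271 in PBS T cells and 4465 in bleomycin T cells.

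Cox6b2 was found in all FB subtypes. In alveolar FBs it stood at 360.9 and 192.5 CPM after single-dose PBS and bleomycin and at 148.3 and 87.61 CPM after repetitive dosing. In adventitial FBs it stood at 160 and 102.6 CPM and at 70.63 and 57.26 CPM. Activated FBs of repetitive bleomycin had the lowest FB value, 32.64 CPM, where it made up 9.85% of its pair. T cells of repetitive PBS had 11.69 CPM (5 UMIs). Bleomycin lay below PBS in each of the alveolar, adventitial and remaining FB groups of both experiments, and Cox6b2 was the more evenly spread of the 2 genes.

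Among the FB subtypes of the lung, Ndufa4l2 was highest in adventitial FBs. It stood at 70.81 and 37.39 CPM in adventitial FBs after single-dose PBS and bleomycin and at 37.93 and 57.01 CPM after repetitive dosing, so the direction differed between the experiments. The single-dose values rest on 114 and 168 barcodes. In alveolar FBs it stood at 1.833, 0.738 and 1.705 CPM in single-dose PBS, repetitive PBS and repetitive bleomycin, and at 0 UMIs in single-dose bleomycin, where 3 UMIs would be 2.93 CPM. Adventitial FBs numbered 700 of the FB gate in repetitive PBS and 2082 in bleomycin, and the part of this makeup in the higher Ndufa4l2 level over all FBs was not tested. Barcodes with both FB and smooth muscle markers had 61.68 CPM in repetitive bleomycin.

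**Figure D4:**
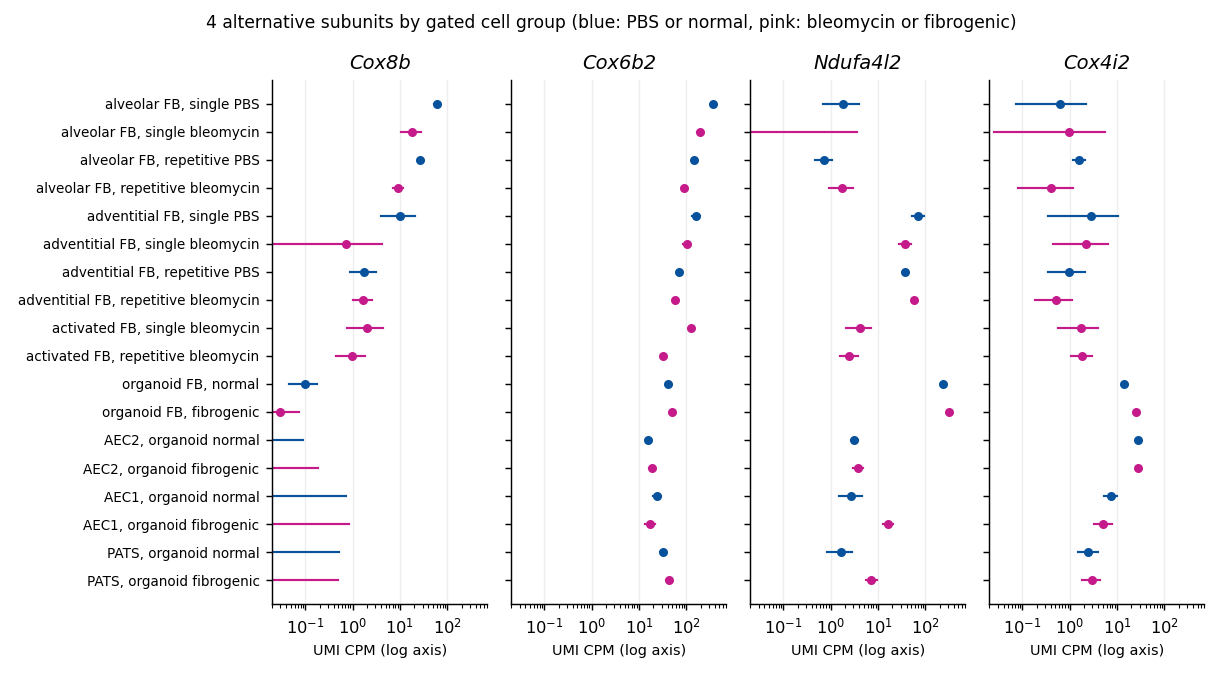
Points give the level of 4 alternative subunits in gated cell groups, in CPM on a log axis, with exact 95% counting intervals as lines. A line without a point marks 0 UMIs and ends at the upper bound of the exact interval. Cox8b is highest in alveolar FBs of PBS lungs (59.58 and 26.04 CPM), and Ndufa4l2 in adventitial and organoid FBs, where it reaches 319.7 CPM.

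In organoids the summed level was slightly higher in fibrogenic than in normal FBs, while the share per barcode was nearly the same. The mean share of a barcode's UMIs was 2.244% in both, with medians of 2.251% in normal and 2.24% in fibrogenic FBs. The sum was 22558.7 CPM in normal and 23685.8 CPM in fibrogenic FBs (ratio 1.05, log2 ratio 0.07). Of 89 genes past the filter, 67 were above 0 and 22 below, with a median of 0.06 beside 0.00 for all genes. Past 1.5-fold stood 1 gene higher, against 1.56% of all 9862 genes, and 0 lower, against 2.52%. All 4 genes of complex II and 25 of the 31 other genes with complex I names were above 0. Uqcrc1, a core protein of complex III, stood at 62.26 and 74.93 CPM (0.26) and Atp5b at 372.6 and 425.7 CPM (0.19). The log2 ratio of the sums was -0.16 in barcodes of 1000 to under 3000 UMIs and 0.05, 0.16 and 0.07 in the deeper ranges. Normal FBs had a median of 45775.5 UMIs and fibrogenic FBs 5290.

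Cox4i2 was the gene called higher in organoid FBs, a call that a filter at 20 CPM leaves out. This form of subunit 4, known from lung and for its use under low oxygen, stood at 13.84 CPM in normal FBs (1430 UMIs) and 24.5 CPM in fibrogenic FBs (3365 UMIs), a log2 ratio of 0.78 (interval 0.73 to 0.91). It was 1.78% and 3.26% of the Cox4i pair, and Cox4i1, the common form, stood at 763.7 and 727.4 CPM (-0.07). At 30000 UMIs or more Cox4i2 was at 14.3 and 25.14 CPM (0.77). Ndufa4l2 was abundant in organoid FBs, at 231.1 and 319.7 CPM (0.47), where it made up 34.6% and 39.8% of its pair with Ndufa4. In FBs taken directly from PBS lungs that share was 1.9% and 1.41%. Cox6a2, the muscle form of subunit 6a, stood at 12.86 and 17.23 CPM (0.40), and it shares exons on the opposite strand with Itgad. Cox6b2 stood at 41.67 and 49.78 CPM (0.25) and Cox8b at 0.09677 and 0.02912 CPM, on 10 and 4 UMIs.

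In organoid epithelium the sum was 30449.3 CPM with normal and 30173.6 CPM with fibrogenic FBs (ratio 0.9909), with 32 of 89 genes above 0 and 57 below, and a median of -0.03 beside 0.03 for all genes. AEC2s were 945 of its 1846 barcodes with normal and 565 of 1636 with fibrogenic FBs, with sums of 31145.4 and 31132 CPM. The part of this makeup in the sum and in single genes of the epithelium was not tested. Past 1.5-fold stood 1 gene higher, against 1.87% of all 9831 genes, and 0 lower, against 0.987%. That gene was Ndufa4l2, at 3.678 and 6.732 CPM (270 and 321 UMIs, log2 ratio 0.72). This call was lost, leaving 0 genes higher, with at least 3000 or 10000 UMIs per barcode, a pseudocount of 5 CPM or a filter at 20 CPM. Barcodes of 1000 to under 3000 UMIs held 0 and 28 of its UMIs. The FBs of the same organoids held 231.1 and 319.7 CPM and were 2154 and 4437 barcodes, and the part of their free RNA in this difference was not tested. It stood at 2.725 and 16.3 CPM in AEC1s (14 and 70 UMIs). Ndufa4 stood at 739.6 and 825 CPM (0.16). The 3 genes of the c subunit were lower, with Atp5g1 at 391.8 and 352.3 CPM (-0.15), Atp5g2 at 574.4 and 532.2 CPM (-0.11) and Atp5g3 at 382.2 and 344.8 CPM (-0.15). Cox4i2 stood at 22.18 and 18.16 CPM (-0.27), and Cox8b had 0 UMIs in both, where 3 UMIs would be 0.0409 and 0.0629 CPM.

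Epithelial cells carried more of these messages than the FBs grown with them. In normal organoids 82 of 90 genes were above 0 in epithelium over FBs, with a median log2 ratio of 0.42, and in fibrogenic organoids 75 of 90, with a median of 0.33. Medians of all genes were 0.02 and 0.06. At least 1.5-fold higher were 29 and 15 genes, against 23% and 24.2% of all genes, and 3 and 3 were lower, against 22.5% and 21.2%. Among the genes high in epithelium were Cox7a2, the common form of subunit 7a, at 372.7 CPM in FBs and 937.5 CPM in epithelium of normal organoids (1.33), Atp5f1, of the ATP synthase stalk, at 336.8 and 693.5 CPM (1.04), and Uqcrfs1, at 88.18 and 160.1 CPM (0.85). Cox7a1, the muscle form of subunit 7a, stood at 1.142 and 10.38 CPM. Ndufa4l2, Cox6a2 and Cox6b2 were lower in epithelium, at -5.63, -2.06 and -1.11.

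AEC2s had the highest sums and PATS cells, the transitional state on the way from AEC2 to AEC1, the lowest of the named epithelial groups. AEC2s stood at 31145.4 CPM with normal and 31132 CPM with fibrogenic FBs, AEC1s at 29307.5 and 28353.9 CPM, and PATS cells at 25350.6 and 26130.4 CPM. These were 945 and 565 barcodes of AEC2s, 168 and 168 of AEC1s, and 182 and 303 of PATS cells. Relative to AEC2s, 66 of 88 genes were below 0 in PATS cells of normal organoids (median -0.21) and 62 of 89 in fibrogenic organoids (-0.19), beside medians of 0.27 and 0.24 for all genes. At least 1.5-fold lower were 12 and 11 genes, against 15.7% and 15.5% of all genes, so this share was not above that of all genes. At least 1.5-fold higher were 2 and 2, against 31.9% and 29.7%. Ndufb11, a complex I subunit encoded on the X chromosome, stood at 435.3 CPM in AEC2s and 190.4 CPM in PATS cells of normal organoids (-1.19), and Ndufv3, which sits in the NADH module, at 249.3 and 107.2 CPM (-1.21). Cox6b2 was the other way, at 15.3 and 31.6 CPM (1.00). Among these epithelial groups Cox4i2 was highest in AEC2s, at 27.61 and 27.12 CPM in AEC2s, 7.397 and 5.123 CPM in AEC1s and 2.473 and 2.901 CPM in PATS cells, and the FBs grown with them held 13.84 and 24.5 CPM. PATS cells had medians of 38942 and 21965 UMIs and AEC2s 42664 and 38994. Groups formed from markers within 1 library are not replicates, and no test was made between them.

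**Figure D5:**
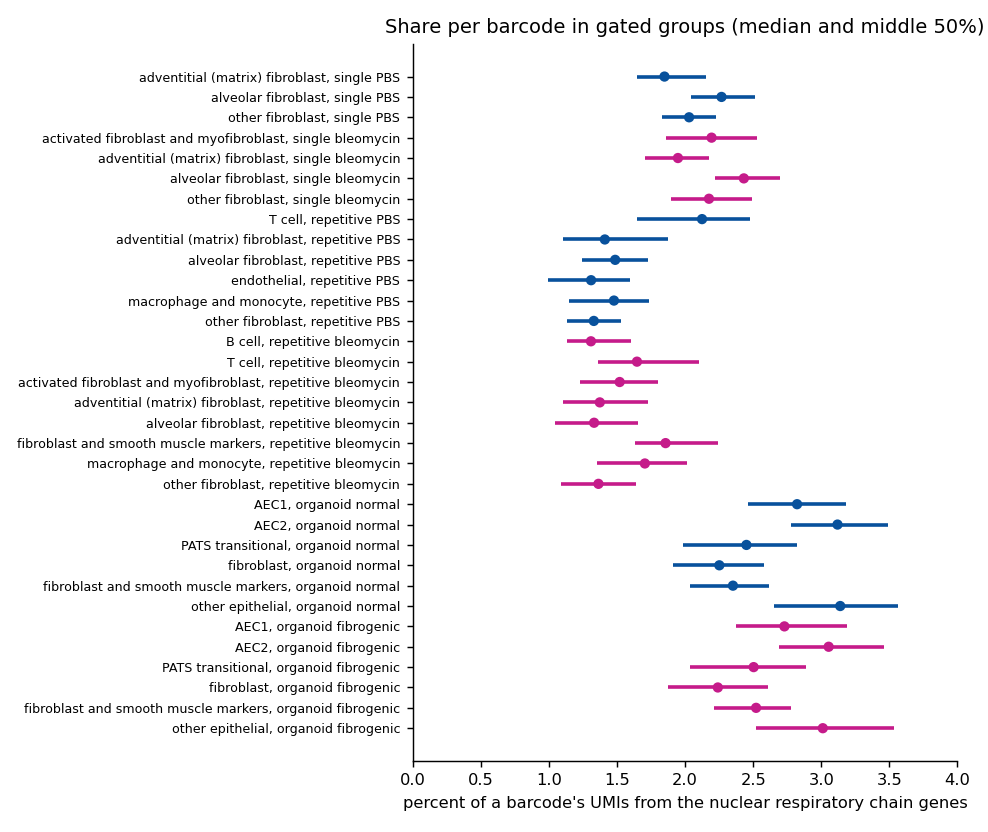
For each gated cell group, the point is the median and the line the middle 50% over barcodes of the percent of UMIs that came from the nuclear respiratory chain genes, with PBS or normal in blue and bleomycin or fibrogenic in pink. Medians of the groups plotted, which leave out the division by cycling, ran from 1.308% in B cells of repetitive bleomycin to 3.139% in epithelial cells outside the named groups of normal organoids, and the ranges of treated and control groups overlapped.

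The sum in T cells of the repetitive experiment was 22888 CPM in PBS (93 barcodes) against 14197.1 CPM in FBs, with 47 of 87 genes at least 1.5-fold higher, against 38.5% of all genes, and 2 lower, against 33.1%. In repetitive bleomycin it was 19321.2 CPM (55 barcodes) against 14170.8 CPM in FBs, with 25 of 87 genes higher, against 29.7% of all genes, and 7 lower, against 38.5%. The medians of the members were 0.69 and 0.40, beside 0.17 and -0.11 for all genes. Median UMIs were 3271 in T cells and 10456 in FBs of PBS, and 4465 and 3747 in bleomycin. What depth added to these differences was not tested. Macrophages and monocytes stood at 15387.7 CPM (59 barcodes) and 17574.7 CPM (110 barcodes). Cycling organoid FBs were above those not cycling in 79 of 89 genes (median 0.12) with normal and 78 of 89 (0.11) with fibrogenic origin, beside medians of 0.04 and 0.03 for all genes. None of the members was 1.5-fold higher or lower, against 6.82% and 5% of all genes higher and 1.74% and 2.38% lower. Cycling FBs had medians of 61928.5 and 67592.5 UMIs and those not cycling 42255 and 3795, and the part of depth was not tested. In cycling organoid epithelium 72 of 88 and 77 of 89 genes were above 0 (medians 0.10 and 0.15, beside 0.00 and -0.02 for all genes).

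In whole libraries, after a single dose, 3 genes were called higher, against 13.2% of all 10051 genes, and 4 lower, against 9.82%. The added gene was Cox4i2, at 21.39 CPM in PBS (154 UMIs) and 10.87 CPM in bleomycin, while FBs of these libraries held 7 and 12 of its UMIs. After repetitive dosing 1 gene was higher, against 10.5% of all 10713 genes, and 2 were lower, against 6.68%, the same 3 as in FBs. In organoids 2 genes were higher, against 2.05% of all 10353 genes, and 0 lower, against 2.97%. These were Ndufa4l2, at 143 and 230.8 CPM (0.69), and Cox6a2, at 8.135 and 12.75 CPM (0.59), while Cox4i2, the call in organoid FBs, was not among them. Ndufa4l2 and Cox6a2 were not called in organoid FBs. FB barcodes held 103334191 of 211680702 UMIs in the normal and 137345132 of 238618743 in the fibrogenic library. The part of this makeup in the 2 calls was not tested. Of the members 39 were above 0 and 51 below in these libraries, and in organoid FBs 67 and 22.

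The genes of the mitochondrial genome, which encode further subunits, were set beside the nuclear set. In lung FBs their 13 genes summed to 25803.6 CPM in PBS and 32522 CPM in bleomycin after a single dose (log2 ratio of the sums 0.33) and to 30403.4 and 34033.2 CPM after repetitive dosing (0.16), with 9 of 13 above 0 in each. mt-Cytb, a catalytic subunit of complex III, stood at 2463 and 3510 CPM (0.51) and at 3312 and 4130 CPM (0.32). In organoid FBs all 13 were below 0, from 35512.6 to 33279.1 CPM (-0.09), and in organoid epithelium 12 of 13 were above 0, from 50186 to 53635.1 CPM (0.10). The order turned with depth in organoid epithelium, at 47608.2 and 21753.7 CPM in barcodes of 1000 to under 3000 UMIs, 50099.5 and 34152.1 CPM from 3000 to under 10000, and 48875 and 53180.5 CPM at 30000 or more. In repetitive FBs it was 39035.2 and 36563 CPM at 1000 to under 3000 UMIs, and from 3000 UMIs bleomycin was the higher.

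Lists of related genes gave the setting. The 78 mitochondrial ribosome genes of the later tables had 53 of 77 past the filter above 0 in repetitive FBs (median 0.08), and 46 of 76 were above 0 after a single dose (0.11). Cytosolic ribosome genes were mostly below 0, with 25 of 83 above it after a single dose and 8 of 83 after repetitive dosing (medians -0.12 and -0.22), and 77 of 83 were above 0 in organoid FBs (0.10). These orders turned with depth. The sums were 133907 and 144844 CPM at 1000 to under 3000 UMIs after a single dose, 96098.6 and 98034 CPM at 30000 UMIs or more after repetitive dosing, and 228823 and 177675 CPM at 1000 to under 3000 UMIs in organoid FBs. Citric acid cycle genes had 4 of 13 above 0 after a single dose (-0.16), 6 of 13 after repetitive dosing (0.00), and 12 of 13 in organoid FBs (0.06). Glycolysis genes had 7 and 9 of 13 above 0 in lung FBs, all 13 in organoid FBs (0.31) and 0 in organoid epithelium (-0.39).

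Of the helpers of the chain, Surf1 and Cox17, which assemble complex IV, were lower in FBs after a single dose, at 90.64 and 44.72 CPM and at 306.2 and 187.3 CPM (-0.71), and they were at -0.48 and -0.59 after repetitive dosing. The assembly list had 7 and 8 of 11 genes above 0 (medians 0.15 and 0.13). Among 7 electron and ADP carriers, 4 and 1 were above 0. Etfa, which delivers electrons from fatty acid oxidation, stood at 158.2 and 94.66 CPM (-0.73) and at 149.2 and 94.85 CPM (-0.65), and Slc25a5, an exchanger of ADP and ATP, at 182.8 and 336.7 CPM (0.88) and at 112.6 and 125.1 CPM (0.15). The regulators of mitochondrial biogenesis had 3 and 4 of 7 above 0 (medians -0.04 and 0.01), with Tfam at 28.68 and 22.31 CPM (-0.35) and at 22.93 and 24.37 CPM (0.08). Of the hypoxia list 4 genes passed the filter in lung FBs, and after a single dose 2 of them were above 0 and 2 below. These ranged from Slc2a1 at 0.4148 to Bnip3 at -1.055. The whole list summed to 279.635 and 185.746 CPM after a single dose and to 352.252 and 183.419 CPM after repetitive dosing (-0.59 and -0.94). In organoid FBs it stood at 739.155 and 822.395 CPM (0.15) and in organoid epithelium at 388.133 and 347.682 CPM (-0.16).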

How the data were processed

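Droplet single-cell RNA sequencing was analysed in 6 libraries, 1 per condition and 3 pooled mice each. Raw UMI counts of every gene in every barcode were deposited by the authors, who made them with Cell Ranger 3.0.1. The submitters' processing notes name build mm10, and the methods of the study name GRCm38 with Gencode M17 for the single-dose tables. The annotation of the other tables, and whether strand was used in counting, are not given in the sources used here. Respiratory chain genes have near-identical copies (5 members have a named pseudogene), and the effect of reads shared with them was not tested. Of the 93 members with a position, 29 overlap an exon of another gene on the opposite strand and 5 on the same strand, and their counts are uncertain to that extent.

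Counts were summed over barcodes and divided by all UMIs of the group (CPM). Gated barcodes had at least 1000 UMIs, at most 25% of mitochondrial-genome UMIs and at least 30% of the markers of 1 of 11 lineage lists, with the next list at most 0.6 times as high. FB and epithelial subtypes were gated by mean scaled marker levels. No doublet caller was run, and barcodes that met several lists stayed without a lineage. Genes with a mean of at least 5 CPM in a comparison were kept, 1 CPM was added before log2 ratios, and 1.5-fold was the call. With 1 library per condition no p-value was computed. Intervals are exact Poisson intervals for a CPM and exact binomial intervals for ratios and shares, at 95%, and a count of 0 is given with the level of 3 UMIs, slightly under the upper bound of its exact interval. Groups under 50 barcodes were left out. The contrast script was tested on simulated data. Members, gene lists and tests were chosen with earlier results of these data known, and gate limits after marker levels were seen. Named were the 3 highest and 3 lowest members of each comparison, the paired isoforms and c subunit genes, the highest and lowest member of each complex, complex II and the catalytic cores, and members called alike in both lung experiments. Others were named after their values were seen, as were the cell group comparisons. Positions and exon overlaps come from a GRCm38 annotation and promoters from RefSeq. Python 3.11.15 with NumPy 2.4.6, SciPy 1.17.1, pandas 2.3.3 and matplotlib 3.10.9 was used.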

Additional observations from a re-analysis of the deposited data

Results flagged for a closer look

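Opposite directions of bleomycin over PBS, or fibrogenic over normal, in 2 groups were listed, over 5 pairs of groups, where the counting intervals of both excluded 0 and, for a single gene, both were at least 1.2-fold from the control. None of these differences between groups was tested, since each condition was 1 library. The summed level of the respiratory chain genes in alveolar FBs had a log2 ratio of 0.1291 after a single dose and -0.08727 after repetitive dosing. Ndufa4l2 in adventitial FBs was at -0.9035 after a single dose (114 and 168 barcodes) and 0.5754 after repetitive dosing (700 and 2082 barcodes). In organoids the sum was at -0.01312 in epithelium and 0.07034 in FBs, and Cox4i2 was at -0.2746 in epithelium and 0.7812 in FBs. Within AEC2s Cox4i2 stood at 27.61 CPM with normal and 27.12 CPM with fibrogenic FBs, and within AEC1s at 7.397 and 5.123 CPM. AEC2s were 945 of 1846 epithelial barcodes with normal and 565 of 1636 with fibrogenic FBs. The part of this makeup in the epithelial values was not tested.

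In the repetitive experiment T cells (93 and 55 barcodes) and macrophages and monocytes (59 and 110 barcodes) went opposite ways, with the sum at -0.2444 and 0.1917. Medians of all genes were -0.1469 and -0.1227. In T cells 16 of 86 members were at least 1.5-fold lower, against 30.7% of all genes, and 2 higher, against 19.3%. In macrophages and monocytes 8 of 88 were higher, against 14.4%, and 2 lower, against 21.6%. Single genes listed by the same rule included Atp5j (-0.6936 and 0.4056), Ndufab1 (-0.5757 and 0.4703), Ndufs5 (-0.8951 and 0.5729) and Uqcr11 (-0.7845 and 0.4354). Their part in the sums was not tested.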

How the results depend on the processing

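No paired analysis was possible because each condition had 1 library, so leaving out a replicate could not be done either. Of 240 values under other settings, 219 moved by less than the counting interval, or by less than 1.5 times for a count, and 21 moved further. The median over the genes changed sign in 4 of the 240, at a size far under 1.5-fold. Limits of the data are the single library per condition, the depth gap within each pair of libraries, and gates that rest on markers. A stricter gate (next list at most 0.4 times as high) and a minimum of 10000 UMIs were added after the data were seen.

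With log2 ratios centred on the median gene, the median of the genes was -0.04362 in the repetitive libraries, -0.06718 in repetitive FBs and -0.0581 in organoid epithelium, and in single-dose FBs the calls became 1 higher and 5 lower. Centring turned the sign in the repetitive libraries and in repetitive FBs. With each barcode weighted equally, the median in organoid FBs was 0.02536, and it turned sign in lung FBs, to -0.0404 after a single dose and -0.01453 after repetitive dosing. With a filter at 20 CPM, 2 genes were lower in the single-dose libraries, 0 higher and 1 lower in the repetitive libraries and in repetitive FBs, 1 higher in the organoid libraries and 0 higher in organoid epithelium and organoid FBs. With no filter, 2 were higher and 4 lower in the repetitive libraries. A pseudocount of 5 CPM left 1 higher in the organoid libraries and 0 in organoid epithelium. With at least 3000 or 10000 UMIs 0 were higher in organoid epithelium, and with at least 10000 UMIs 5 were higher in single-dose FBs. The 20 CPM filter and the depth settings left out genes or barcodes by construction, no filter added genes, and the cause of the other shifts was not tested.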

Other observations

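Cox6a2 stood at 34.89 CPM in macrophages and monocytes of repetitive bleomycin, which rested on 40 UMIs in 3 of 110 barcodes and so does not describe the group. The same group in repetitive PBS had 0 UMIs of the gene. Cox6a2 shares exons on the opposite strand with Itgad, and the part of that overlap in this count was not tested.

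Cox7a1, the muscle form of subunit 7a, was low in FBs and highest in AEC1s among the organoid groups, at 17.13 CPM with normal and 16.53 CPM with fibrogenic FBs, against 9.362 and 10.78 CPM in AEC2s. Cox7b2, a testis form of subunit 7b, stood at 1.639 and 0.2898 CPM in FBs after single-dose PBS and bleomycin (10 and 3 UMIs) and at 1.199 and 0.4048 CPM after repetitive dosing (71 and 24 UMIs), under the filter in both experiments.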
